A study of Mus musculus with 36 samples.

Results

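Bacterial lipopolysaccharide (LPS) was given to C57BL6/J mice kept at an ambient temperature of 22 °C, and liver RNA was compared between 12 h and 4 h after the injection. The libraries were chosen by their titles: 5 libraries at 12 h and 4 libraries at 4 h, 9 of the 36 libraries in the series. The other 27 libraries came from the same strain at 22 °C (4 libraries at 0 h and 5 at 24 h) and at 30 °C (5 at 0 h, 4 at 4 h, 4 at 12 h and 5 at 24 h). No allele, diet or second treatment is named for any group, and the labels used here give no dose of LPS and no age or sex. The labels do not say whether each library is a separate animal, so p-values measure the spread between libraries, part of which may be technical.

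LPS is sensed by Toll-like receptor 4 on Kupffer cells and other liver cells. The adaptor MyD88 leads to NF-kB and to inflammatory cytokines, while the adaptor TRIF leads to IRF3, type I interferon and the interferon-stimulated genes. Cytokines then reach the hepatocyte, which makes acute phase proteins for the plasma and turns down much of its metabolic and detoxifying work. Many of the early genes carry their own brakes, and the endoplasmic reticulum of the secreting hepatocyte answers a higher protein load with chaperones.

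The promoters of a few genes that the results turn on show the letters of known motifs of the interferon, NF-kB and endoplasmic reticulum stress responses. These genes and the motifs marked in them were picked by hand, and many genes of their lists hold no match. Capitals mark matches, on either strand, to the interferon-stimulated response element (GAAA, 2 free bases, GAAA), to the kB site (GGGA, 2 free bases, TTCC) or to the endoplasmic reticulum stress response element (CCAAT, 9 free bases, CCACG). Each window is the 250 bases before a RefSeq transcription start in GRCm38.p6, read 5′ to 3′ on the strand of the gene. Ifit1 (chr19:34640639-34640888, plus strand) holds 2 interferon elements, 94 and 75 bases before the start, and fell. Cxcl10 (chr5:92348890-92349139, minus strand) and Gbp5 (chr3:142496684-142496933, plus strand) each hold 1 interferon element and 1 kB site, and both fell. Hspa5 (chr2:34771840-34772089, plus strand) and Pdia6 (chr12:17266339-17266588, plus strand) each hold 1 stress element, and both rose. No printed match overlaps a match to another motif searched. The counts are of the strings as defined here, and looser forms of the motifs were not searched.
Ifit1: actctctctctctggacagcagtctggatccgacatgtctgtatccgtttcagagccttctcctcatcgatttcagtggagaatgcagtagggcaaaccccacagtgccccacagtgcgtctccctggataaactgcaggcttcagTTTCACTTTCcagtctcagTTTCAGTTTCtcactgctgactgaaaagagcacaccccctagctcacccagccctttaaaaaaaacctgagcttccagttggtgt
Cxcl10: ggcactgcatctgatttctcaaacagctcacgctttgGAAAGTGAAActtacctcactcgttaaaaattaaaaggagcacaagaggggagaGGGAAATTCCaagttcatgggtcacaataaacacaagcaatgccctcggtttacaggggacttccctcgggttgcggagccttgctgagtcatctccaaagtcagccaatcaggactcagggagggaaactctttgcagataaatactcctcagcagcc
Gbp5: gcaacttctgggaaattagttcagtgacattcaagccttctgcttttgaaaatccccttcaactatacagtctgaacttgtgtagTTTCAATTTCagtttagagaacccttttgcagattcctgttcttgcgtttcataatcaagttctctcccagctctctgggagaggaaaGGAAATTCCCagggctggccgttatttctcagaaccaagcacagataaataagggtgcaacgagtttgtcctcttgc
Hspa5: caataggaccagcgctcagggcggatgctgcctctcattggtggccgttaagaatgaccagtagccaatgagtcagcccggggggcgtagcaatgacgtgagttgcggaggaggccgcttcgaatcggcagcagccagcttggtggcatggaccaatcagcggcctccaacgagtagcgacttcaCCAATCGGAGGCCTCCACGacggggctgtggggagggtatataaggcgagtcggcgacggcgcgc
Pdia6: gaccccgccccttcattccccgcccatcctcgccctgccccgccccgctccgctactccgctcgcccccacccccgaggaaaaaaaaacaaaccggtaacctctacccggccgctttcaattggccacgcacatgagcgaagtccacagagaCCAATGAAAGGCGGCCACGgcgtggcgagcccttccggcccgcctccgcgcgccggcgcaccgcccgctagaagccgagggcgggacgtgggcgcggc

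Of the 26 type I interferon response genes that fell, 18 had a RefSeq window and 5 of these held the interferon element (Ifit1, Ifit3, Ifit3b, Rsad2 and Trim30a). Among the 10 interferon gamma response genes that fell, 4 of 7 with a window held it (Gbp5, Gbp7, Irgm1 and Irgm2). The kB site was in 4 of the 10 windows of cytokine and chemokine genes that fell (Csf1, Cxcl1, Cxcl10 and Il6). The stress element was in 5 of the 9 windows of unfolded protein response genes that rose (Calr, Creld2, Hsp90b1, Hspa5 and Pdia6). Of all 27025 RefSeq genes with a window of the same length, 3.46% held the interferon element, 1.36% the kB site and 0.130% the stress element. These pairs of list and motif are part of a wider search. It also took in a heat shock element and the lists of NF-kB, heat shock, acute phase and amino acid catabolism genes, whose counts are not printed. A match is a string of letters and no evidence of binding in these livers.

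The libraries were made with CEL-Seq2, which reads the 3′ end of polyadenylated RNA, and the values used are a normalized signal that the authors deposited per gene, in a column whose header reads scaled reads per base. The sources used here do not define it, and whether reads were divided by gene length is not stated, so that levels of different genes, sums over genes and shares of the signal carry this doubt. A ratio between libraries within 1 gene does not turn on a fixed length. In each of the 9 libraries 272 to 322 genes shared 1 low value, taken here as 1 read. Estimated roughly from it, the signal came from about 1176020 to 1470470 reads in the 4 h libraries and 797628 to 1582860 in the 12 h libraries. A level of 3 reads corresponded to a signal of 2.57 to 3.37 at 4 h and 2.05 to 3.86 at 12 h, and values under it are near the detection limit. Each of the 9 libraries correlated with the mean of the others in its group at 0.930 to 0.954 over the tested genes. Of the 4 libraries at 30 °C and 4 h, used below for comparison, replicate 4 stood apart: 18633 genes were above 0 in it against 12321 to 14101 in the other 3, its summed signal was 1717980 against 1131560 to 1244970, and it correlated with the mean of the others at 0.817 against 0.915 to 0.949. Counts of genes by class, calls shared between temperatures and the called differences between temperatures are given with and without it. Class medians, percentages and the steps of single genes at 30 °C are given with it only. The whole signal of a library was 1261950 to 1362720 at 4 h and 1025510 to 1131970 at 12 h, so summed marker signals stand beside lower totals at 12 h. Mitochondrial transcripts made up 12.3 to 15.7% of the signal at 4 h and 9.50 to 11.5% at 12 h. Of 10 hepatocyte markers 6 fell and 2 rose, with a median of -0.63. Their summed signal was 56660 to 70052 at 4 h and 53944 to 64617 at 12 h, and the largest part of it was Fgb, an acute phase gene, with a mean of 28753 at 4 h and 37432 at 12 h, while Ttr, the thyroxine carrier transthyretin, went from 17329 to 9126. Without replicate 1 of 4 h, 0 of the 10 were called higher. Where a group lies near the detection limit, the log2 difference rests on the 1 added to each value and is no measure of the fold. In bulk tissue, fewer cells of a type and less RNA per cell cannot be told apart.

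Between 4 h and 12 h, 26 of 40 type I interferon response genes fell, as did 15 of 25 cytokines and chemokines and 12 of 23 NF-kB subunits and feedback inhibitors. Over the same hours 11 of 28 unfolded protein and integrated stress response genes and 14 of 32 acute phase genes rose, and so did single genes such as Rab30, G0s2 and Apoa4. Of the enzymes of the hepatocyte, 30 of 46 in amino acid catabolism and the urea cycle and 35 of 47 in conjugation and ester cleavage fell. Of 8702 tested genes, 2284 (26.2%) were called at a limma adjusted p under 0.05, where adjustment was over all tested genes. At 12 h, 1032 genes (11.9%) were higher and 1252 (14.4%) lower, and the median difference over all tested genes was -0.00 on the log2(signal + 1) scale. Differences over 2 on that scale were seen in 130 of the genes that rose and 157 of those that fell. Unless overlap is stated, every 12 h library of a called gene described here lay beyond every 4 h library. Upper-quartile rescaling moved the median of all genes to 0.10 and the split to 1290 higher and 1022 lower.

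**Figure D1:**
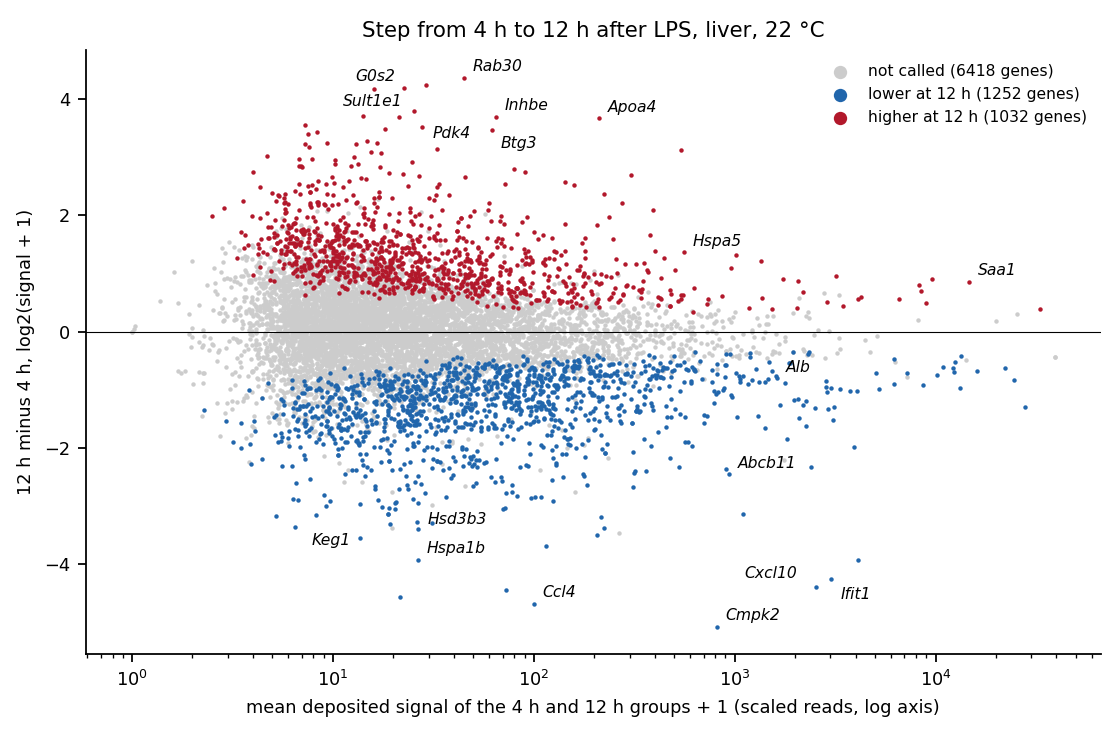
Each point is 1 of the 8702 tested genes, with the mean deposited signal of the 4 h and 12 h groups at 22 °C plus 1 on a log axis and the 12 h minus 4 h difference in log2(signal + 1) on the vertical axis. The 1032 genes higher at 12 h and the 1252 lower are coloured, and the lowest named gene is Cmpk2 at -5.07.

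The 30 °C libraries, which share no library with the 22 °C step, were used to sort genes by their course, and the 22 °C libraries were then read within each class. In the 30 °C livers 1552 genes (17.8%) were higher at 4 h than at 0 h and 1274 (14.6%) lower, and from 4 h to 12 h 1073 genes (12.3%) were higher and 1557 (17.9%) lower. The class that rose and then fell at 30 °C held 561 genes. At 22 °C, 324 of them fell from 4 h to 12 h and 0 rose. Their median level at 22 °C stood 1.89 above the 0 h livers at 4 h, 0.86 above at 12 h and 0.26 above at 24 h (log2). The class that fell and then rose held 461 genes, of which 230 rose and 1 fell in the 22 °C step. Its median at 22 °C went from -1.20 at 4 h to -0.28 at 12 h and 0.03 at 24 h, relative to 0 h.

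Genes that start late formed a class of 513 that was not called at 4 h and higher at 12 h at 30 °C. Of these, 252 rose at 22 °C, and the median relative to 0 h was -0.20 at 4 h, 0.63 at 12 h and 0.81 at 24 h. A class of 837 genes was not called at 4 h and lower at 12 h at 30 °C. In it 509 fell at 22 °C and 0 rose, with medians of -0.14, -0.94 and -1.14 at 4, 12 and 24 h. In the 159 genes lower at both steps at 30 °C, 133 fell further at 22 °C, and the median reached -2.08 at 12 h. The 99 genes higher at both steps included 72 that rose further at 22 °C, from a median of 1.22 at 4 h to 2.10 at 12 h. Without replicate 4 of 4 h at 30 °C, an alternative chosen after the data were seen, the classes of this and the preceding paragraph held 490, 467, 505, 799, 112 and 80 genes in the order given, and 306 fell, 231 rose, 251 rose, 540 fell, 99 fell and 57 rose at 22 °C, where 1 of the 505 fell and 1 of the 799 rose. The falls of the 22 °C step therefore held both genes moving toward their 0 h level and genes moving away from it.

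**Figure D2:**
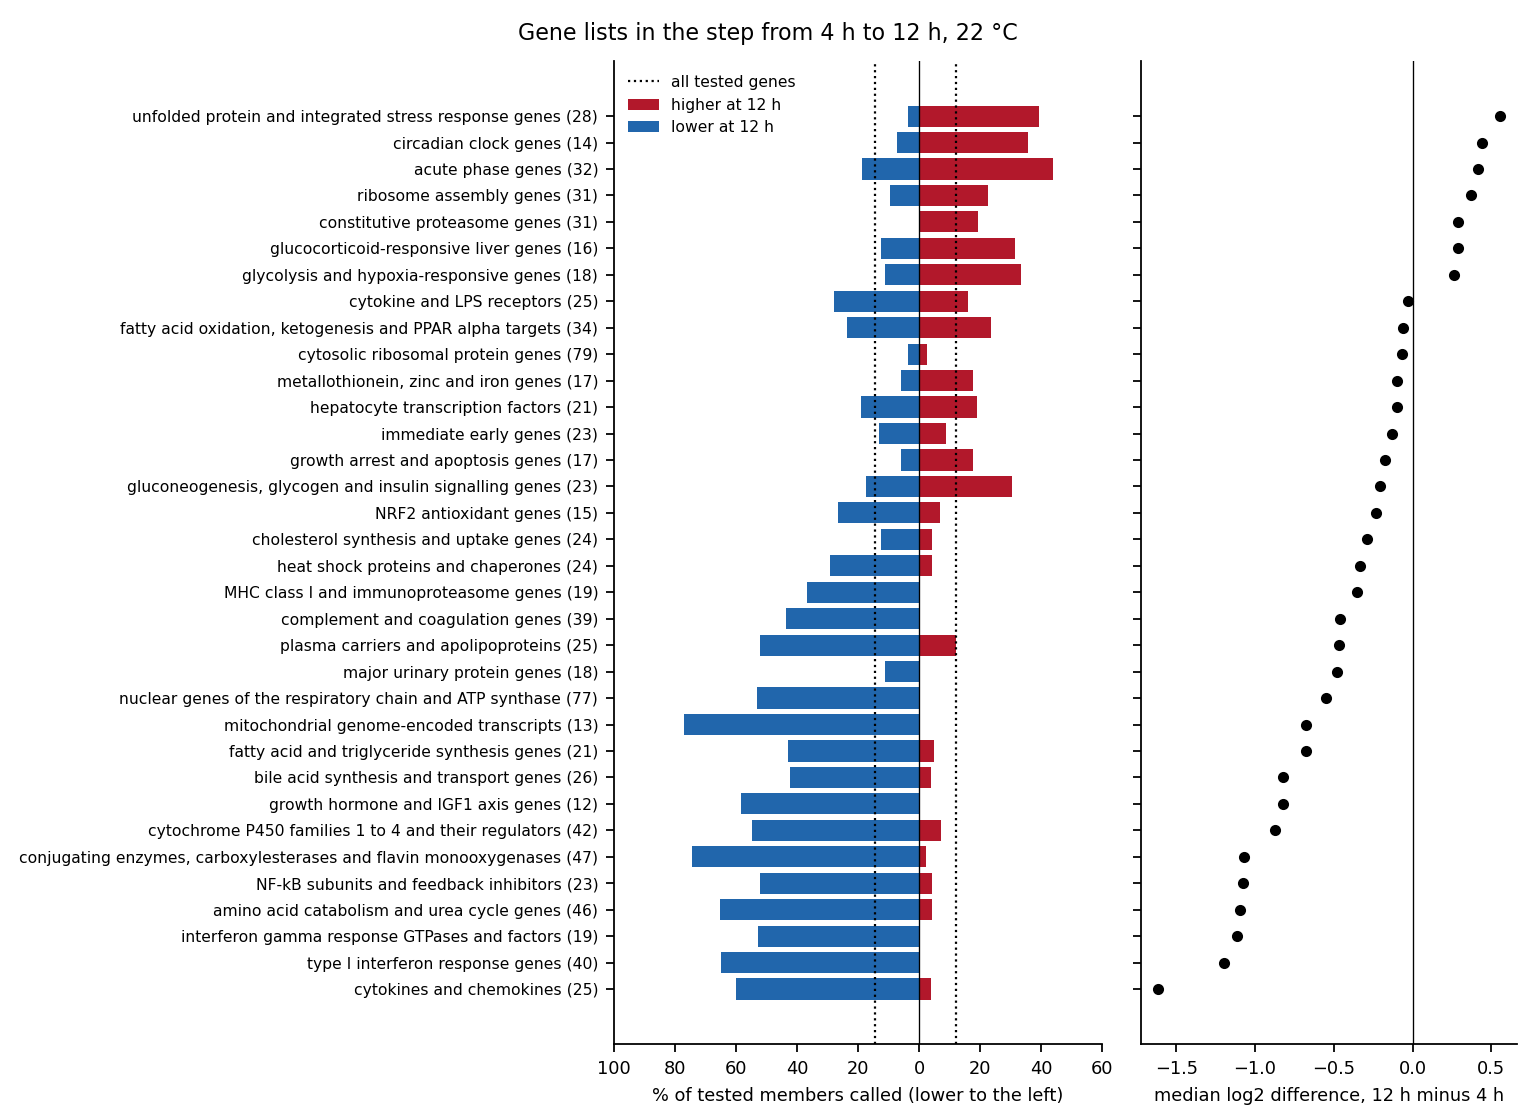
Bars give the percent of tested members of each pathway list with at least 12 of them (their number in brackets; marker lists are not drawn) that were higher (right) or lower (left) at 12 h than at 4 h, and dotted lines give 11.9% and 14.4% for all tested genes. Points give the median log2 difference of each list drawn, from -1.62 for cytokines and chemokines to 0.55 for the unfolded protein and integrated stress response genes.

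The type I interferon response fell back. Of its 40 tested genes 26 fell and 0 rose, with a median difference of -1.20 over all 40. Cmpk2, a mitochondrial nucleotide kinase that lies beside Rsad2 in the genome and is induced with it, had signals of 1899, 1553, 1503 and 1315 in the 4 h libraries and 67.4, 152, 50.8, 20.8 and 16.8 in the 12 h libraries, in replicate order. The highest 12 h library lay far under the lowest 4 h library, and the log2 difference was -5.07 (SE 0.42, limma adjusted p = 1.81e-10). Ifit1, which binds viral RNA ends, had 6388, 5039, 5652 and 5818 at 4 h and 464, 604, 284, 203 and 147 at 12 h. Its groups did not overlap, with a difference of -4.25 (SE 0.36, limma adjusted p = 1.81e-10). Before LPS its mean was 87.1 ± 12.3 (SD, n = 4), so that every 12 h library was still above the 0 h mean, and at 24 h the mean was 42 ± 23 (SD, n = 5).

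Rsad2, the antiviral enzyme viperin, had 9694, 6905, 7228 and 6321 at 4 h and 778, 1901, 571, 230.1 and 145 at 12 h. All 5 late libraries were lower, with a log2 difference of -3.92 (SE 0.43, limma adjusted p = 3.72e-08), but they spread widely, and replicate 2 was the highest. Ifit3b, whose reads can be split with its near-identical copy Ifit3, had 2364, 1584, 2156 and 1686 at 4 h and 273, 488, 238, 150.0 and 102 at 12 h, without overlap, and a difference of -3.14 (SE 0.34, limma adjusted p = 3.49e-08). Trim25, a ubiquitin ligase of the RIG-I pathway, had 292, 324, 274 and 315 at 4 h and 109.9, 126, 86.5, 64.3 and 89.2 at 12 h. Its log2 difference was smaller, -1.69 (SE 0.16, limma adjusted p = 3.7e-09), and the groups were well apart. In the 26 fallen genes, the 12 h libraries kept an order: replicate 2 was the highest in 21 and replicate 5 the lowest in 16. Without replicate 2 of 12 h, 28 of the list fell, and without replicate 5, 21.

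The GTPases and factors of the interferon gamma response fell as well, 10 of 19 tested with 0 higher and a median of -1.11. Gbp6, a guanylate-binding protein that attacks the vacuoles of intracellular pathogens, had 1681, 1644, 1498 and 1222 at 4 h and 637, 641, 535, 547 and 397 at 12 h. The groups were separate, with a difference of -1.46 (SE 0.21, limma adjusted p = 3.86e-06), and the 12 h values remained above the 0 h mean of 59 ± 14.5 (SD, n = 4). Gbp5, which takes part in inflammasome activation, had 149.5, 175, 153 and 130.0 at 4 h and 39.2, 48.9, 40.8, 18.1 and 15.8 at 12 h, again without overlap, and a difference of -2.31 (SE 0.46, limma adjusted p = 0.000294). Ifi47, an immunity-related GTPase, had 3348, 4094, 3689 and 3168 at 4 h and 1503, 1729, 1252, 1384 and 1315 at 12 h, and its difference was -1.32 (SE 0.22, limma adjusted p = 2.62e-05). Genes of MHC class I presentation fell in 7 of 19 cases and rose in 0, with a median of -0.35. Tap1, the peptide transporter, had 203, 174, 135 and 227 at 4 h and 86.2, 115, 77.5, 108 and 88.2 at 12 h, a difference of -0.94 (SE 0.23, limma adjusted p = 0.00287) without overlap. B2m, the light chain of the complex, went from 2107, 1943, 2482 and 2373 to 1653, 1504, 1676, 1481 and 1362, a log2 difference of -0.53 (SE 0.14, limma adjusted p = 0.00346). The count of 7 became 4 without replicate 1 of 4 h, without replicate 5 of 12 h, under upper-quartile rescaling and with no filter on low signal.

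Among the cytokines and chemokines, 15 of 25 tested genes fell and 1 rose, and the median was -1.62, the lowest of the lists. The single rise was not called without replicate 1 or 4 of 4 h. Cxcl10, a ligand of CXCR3 on T and NK cells, had 5361, 5009, 4606 and 4322 at 4 h and 219, 415, 245, 249 and 114 at 12 h. Every 12 h library was lower, with a log2 difference of -4.38 (SE 0.37, limma adjusted p = 1.81e-10), and at 24 h the mean of 46.1 ± 18.8 (SD, n = 5) was close to the 0 h mean of 43 ± 18 (SD, n = 4). Cxcl11, a second CXCR3 ligand, had 449, 429, 312 and 306 at 4 h and 65.6, 59.8, 31.4, 15.7 and 15.9 at 12 h, with a difference of -3.50 (SE 0.63, limma adjusted p = 8.28e-05). Art3, an ADP-ribosyltransferase gene, spans Cxcl10 and Cxcl11 on the opposite strand in the GENCODE M21 annotation. It had 243, 214, 184 and 202 at 4 h and 12, 22.9, 18, 19.6 and 8.6 at 12 h, a difference of -3.69 (SE 0.44, limma adjusted p = 2.22e-07), and since use of strand in the counting is not stated, its reads cannot be told from those of the 2 chemokines.

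Ccl4, a chemokine of macrophages and lymphocytes, had 215, 233, 118 and 201 at 4 h and 11.6, 6.92, 6.63, 3.86 and 4.55 at 12 h, separate groups that differed by -4.68 (SE 0.55, limma adjusted p = 1.28e-07). Ccl3, its close relative, had 46.3, 42.1, 42.6 and 51.6 at 4 h and 3.41, 11.9, 2.84, 5.14 and 0.91 at 12 h, with a log2 difference of -3.27 (SE 0.49, limma adjusted p = 8.56e-06). Ccl2, which draws monocytes through CCR2, had 231, 244, 114 and 217 at 4 h and 32.7, 84.1, 36.3, 49.3 and 26.2 at 12 h. Its groups did not overlap, the difference was -2.18 (SE 0.47, limma adjusted p = 0.000727), and the 12 h values stayed above the 0 h mean of 1.47 ± 1.09 (SD, n = 4). Il1b, the fever-inducing interleukin, had 22.8, 23, 20.5 and 19.5 at 4 h and 7.69, 6.03, 2.67, 5.43 and 0.854 at 12 h, a difference of -2.21 (SE 0.43, limma adjusted p = 0.000248). Tnf, among the first cytokines made after LPS, had 22.9, 17.8, 14.9 and 8.47 at 4 h and 10.9, 8.39, 0, 3.64 and 5.15 at 12 h. Replicate 1 of 12 h overlapped the 4 h range, and the difference of -1.68 (SE 0.58, limma adjusted p = 0.0279) lost its call without replicate 3 of 12 h (adjusted p = 0.13) and under 6 other settings.

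Tnfsf10, the death ligand TRAIL, had 193, 149.9, 188 and 180.1 at 4 h and 25.2, 30.6, 25.8, 20.6 and 18.1 at 12 h, groups far apart with a difference of -2.85 (SE 0.31, limma adjusted p = 3.33e-08). Cxcl14, a constitutive chemokine of epithelia, was the 1 member that rose. Its 4 h signals of 0, 0.971, 3.37 and 0 were at the detection limit, its 12 h signals of 6.18, 11.2, 15, 2.91 and 1.03 overlapped them, and the difference was 1.91 (SE 0.58, limma adjusted p = 0.0131). The call was lost without replicate 1 or replicate 4 of 4 h and in a fit on the 2 groups alone. At 24 h its mean was 48.9 ± 16.4 (SD, n = 5). Requiring a mean signal of at least 20 left 8 fallen cytokine genes, since fewer were tested.

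**Figure D3:**
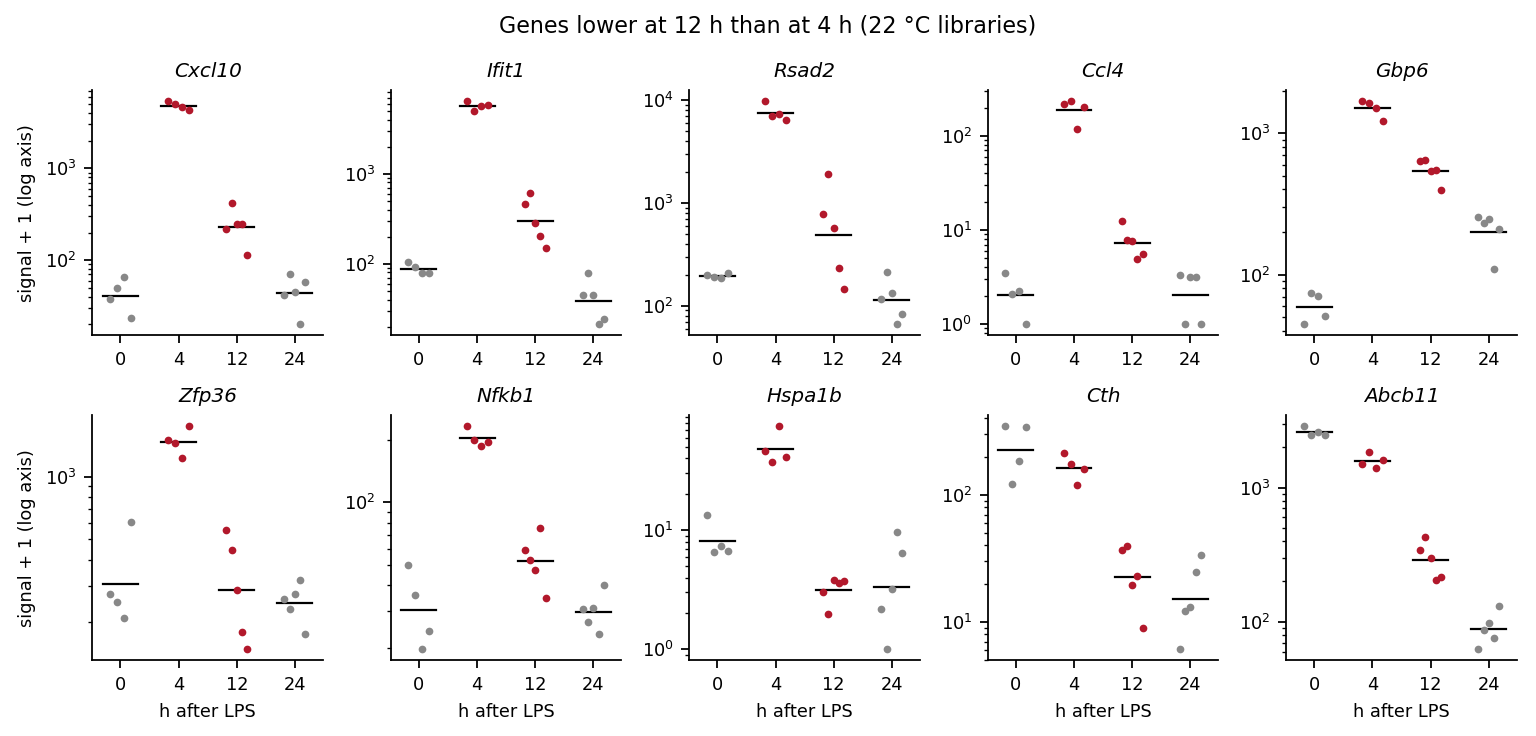
Points are single libraries at 22 °C, 0, 4, 12 and 24 h after LPS, on a log axis of deposited signal plus 1, with the 4 h and 12 h libraries in red and the mean of the logs as a bar. The immune genes, and Hspa1b, are highest at 4 h, whereas Cth and Abcb11 have their highest mean at 0 h and are lower at 12 and 24 h than at 4 h.

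Of the NF-kB subunits and feedback inhibitors, 12 of 23 tested genes fell and 1 rose, with a median of -1.07. Nfkb1, the p105 and p50 subunit, had 230.1, 199, 186 and 195 at 4 h and 57.9, 51.9, 46.2, 74.1 and 33.8 at 12 h. The groups were well apart, with a log2 difference of -1.96 (SE 0.22, limma adjusted p = 4.1e-08). Nfkb2, the p100 and p52 subunit, had 200.1, 165, 140.3 and 195 at 4 h and 44.1, 34.5, 67, 27.7 and 53.2 at 12 h, also without overlap, with a log2 difference of -1.98 (SE 0.35, limma adjusted p = 7.7e-05). Ripk2, the kinase that links NOD receptors to NF-kB, had 159, 103, 115 and 131 at 4 h and 12.6, 21.2, 9.68, 23.6 and 10.2 at 12 h, the largest fall of the list with a log2 difference of -3.03 (SE 0.52, limma adjusted p = 4.13e-05). Nfkbia, the inhibitor IkB-alpha, had 674, 481, 569 and 798 at 4 h and 436, 578, 483, 413 and 249.7 at 12 h. Its groups overlapped, and the call at -0.57 (SE 0.20, limma adjusted p = 0.032) was lost with no filter, in a fit on the 2 groups alone, under upper-quartile rescaling (adjusted p = 0.0768) and without replicate 1 or 4 of 4 h or replicate 4 or 5 of 12 h.

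Zc3h12a, the RNase regnase-1 that degrades cytokine mRNAs, went the other way. It had 23.8, 20.8, 22 and 17.6 at 4 h and 54.3, 57, 44.7, 55.7 and 35.6 at 12 h, with every late library higher, and a difference of 1.18 (SE 0.34, limma adjusted p = 0.00969). Socs3, the inhibitor of IL-6 signalling through STAT3, had 59.9, 81.8, 79.3 and 61.9 at 4 h and 26.2, 27.6, 33.7, 29.9 and 26.6 at 12 h. It fell, with a log2 difference of -1.26 (SE 0.31, limma adjusted p = 0.00236), without overlap and stayed above its 0 h mean of 1.93 ± 1.44 (SD, n = 4).

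Among 23 tested immediate early genes 3 fell and 2 rose, with a median of -0.13. Of all tested genes 14.4% fell and 11.9% rose, so nothing is read from these counts about the list as a group. The rises became 1 without replicate 1 or 2 of 4 h or replicate 3 or 4 of 12 h. Zfp36, tristetraprolin, which binds AU-rich elements and speeds the decay of Tnf mRNA, had 1496, 1453, 1224 and 1739.7 at 4 h and 555, 443, 285, 179 and 148 at 12 h. It was lower in all 5 late libraries, with a log2 difference of -2.36 (SE 0.32, limma adjusted p = 1.86e-06). Dusp2, a phosphatase of MAP kinases, had 67.9, 38.1, 39.1 and 63.5 at 4 h and 14.2, 24.1, 10.9, 22.1 and 15.6 at 12 h, with a log2 difference of -1.54 (SE 0.38, limma adjusted p = 0.00294). Klf10, a TGF-beta-inducible factor, rose: 25.4, 46.3, 20.8 and 34.8 at 4 h and 277, 247, 114, 73.3 and 48.2 at 12 h. The late libraries ranged widely, the lowest of them lay just above the highest early one, and the difference was 1.98 (SE 0.57, limma adjusted p = 0.00987).

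Among the receptors 7 of 25 were lower and 4 higher, against 14.4% and 11.9% of all tested genes, with a median of -0.03. Tlr2, the receptor for bacterial lipopeptides, had 138, 129.6, 162 and 144 at 4 h and 23.9, 28.7, 25.6, 16.7 and 9.1 at 12 h, a log2 difference of -2.82 (SE 0.59, limma adjusted p = 0.000569). Tlr3, the receptor for double-stranded RNA, fell to near the detection limit, from 31.8, 25.7, 26.1 and 23.5 to 3.66, 8.3, 2.88, 2.9 and 1.43, with a log2 difference of -2.66 (SE 0.37, limma adjusted p = 2.74e-06). Myd88, the shared adaptor, had 136, 206, 144 and 166 at 4 h and 67.6, 88, 56.8, 73.3 and 61.9 at 12 h, with a log2 difference of -1.21 (SE 0.27, limma adjusted p = 0.00109). Il1r2, the decoy receptor for interleukin 1, appeared late. It had 0.933, 2.18, 1.68 and 2.75 at 4 h, under the detection limit, and 17.9, 11.7, 6.41, 17.3 and 11.1 at 12 h, without overlap, and a difference of 2.23 (SE 0.36, limma adjusted p = 2.25e-05).

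Of 24 heat shock proteins and chaperones 7 fell and 1 rose, with a median of -0.33. Under upper-quartile rescaling 4 fell and 3 rose, and 2 rose without replicate 1 of 4 h or replicate 1 of 12 h. Hspa1b, the inducible HSP70, had 45.2, 36, 73.4 and 40.4 at 4 h and 2.05, 0.989, 2.84, 2.57 and 2.73 at 12 h, where each value was at or under about 3 reads. The difference was -3.93 (SE 0.48, limma adjusted p = 3.56e-07), and its near-identical copy Hspa1a can share its reads. Dnaja1, an HSP40 co-chaperone, had 82.6, 67.1, 74.6 and 78.6 at 4 h and 46.5, 46.1, 44.1, 35.5 and 37.2 at 12 h, a log2 difference of -0.84 (SE 0.20, limma adjusted p = 0.00217) without overlap. Hspb8, a small heat shock protein of chaperone-assisted autophagy, rose instead. It had 93.5, 181, 148 and 149 at 4 h and 284, 418, 339.6, 214 and 188 at 12 h, all late libraries higher, with a log2 difference of 0.99 (SE 0.21, limma adjusted p = 0.000678).

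Rab30, a small GTPase of the Golgi, had 3.31, 1.58, 4.96 and 2.25 at 4 h, near the detection limit, and 146, 98.5, 72.5, 42.7 and 63.9 at 12 h. It was the largest rise of a named gene, 4.36 (SE 0.55, limma adjusted p = 4.78e-07), and its 24 h mean was 86.2 ± 33.8 (SD, n = 5). G0s2, the inhibitor of the triglyceride lipase ATGL, had 1.1, 0.858, 0.991 and 2.25 at 4 h and 39.6, 25.7, 55.9, 32.1 and 55.5 at 12 h. The groups were far apart, with a log2 difference of 4.19 (SE 0.40, limma adjusted p = 2.8e-09), and the 0 h mean of 30.7 ± 21.4 (SD, n = 4) was also far above the 4 h values. G0s2 lies inside Lamb3 on the opposite strand in the GENCODE M21 annotation.

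Apoa4, an apolipoprotein of triglyceride-rich particles, had 32, 28.3, 30.7 and 24.7 at 4 h and 469, 323, 540.1, 374 and 246 at 12 h. All 5 late libraries lay far above the early ones, with a difference of 3.66 (SE 0.26, limma adjusted p = 6.85e-12), and its mean went on to 714 ± 105 (SD, n = 5) at 24 h. Pdk4, which shuts pyruvate out of the citric acid cycle, had 1.69, 4.68, 1.02 and 3.99 at 4 h and 82.8, 72.9, 61.6, 9.24 and 25.8 at 12 h. The late libraries were all higher but replicates 4 and 5 much less so, and the difference was 3.52 (SE 0.56, limma adjusted p = 1.62e-05). Inhbe, the activin E subunit secreted by hepatocytes, had 8.84, 3.14, 12.9 and 10.9 at 4 h and 127, 130.1, 162, 96.2 and 80.1 at 12 h, without overlap, with a log2 difference of 3.69 (SE 0.36, limma adjusted p = 5.7e-09). Its 4 h livers were under the 0 h mean of 42.2 ± 18.1 (SD, n = 4).

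Sult1e1, the estrogen sulfotransferase, had 5.51, 2.57, 3.96 and 0 at 4 h and 58.7, 35.6, 57.8, 36 and 40.0 at 12 h, separate groups with a log2 difference of 3.79 (SE 0.42, limma adjusted p = 4.55e-08). Btg3, an antiproliferative factor of the BTG family, had 15.8, 28.1, 16.9 and 0 at 4 h and 118, 104, 127, 90.8 and 91.8 at 12 h. Replicate 4 of 4 h was listed at 0, apart from the other 3, and the difference was 3.46 (SE 0.62, limma adjusted p = 8.95e-05). Ndst2, a heparan sulfate sulfotransferase, had 1.04, 0, 0.939 and 9.76 at 4 h and 54.2, 25.8, 24.7, 41 and 10.6 at 12 h, with a log2 difference of 3.47 (SE 0.55, limma adjusted p = 1.81e-05) and a narrow gap between replicate 4 of 4 h and replicate 5 of 12 h. Tmem189, an enzyme of plasmalogen synthesis that overlaps a readthrough gene on its own strand, had 0.618, 0.962, 2.22 and 0.629 at 4 h and 28.7, 24.9, 23.4, 25.2 and 24 at 12 h, with a log2 difference of 3.70 (SE 0.48, limma adjusted p = 1.01e-06). Tmem254b, which has near-identical copies, had 11.3, 4.5, 0 and 0 at 4 h and 25.9, 40.1, 47.4, 31.6 and 38.4 at 12 h, with a log2 difference of 3.69 (SE 0.90, limma adjusted p = 0.00233), while its copy Tmem254a was called lower, at -1.15 (log2), and the split of reads between such copies is uncertain.

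**Figure D4:**
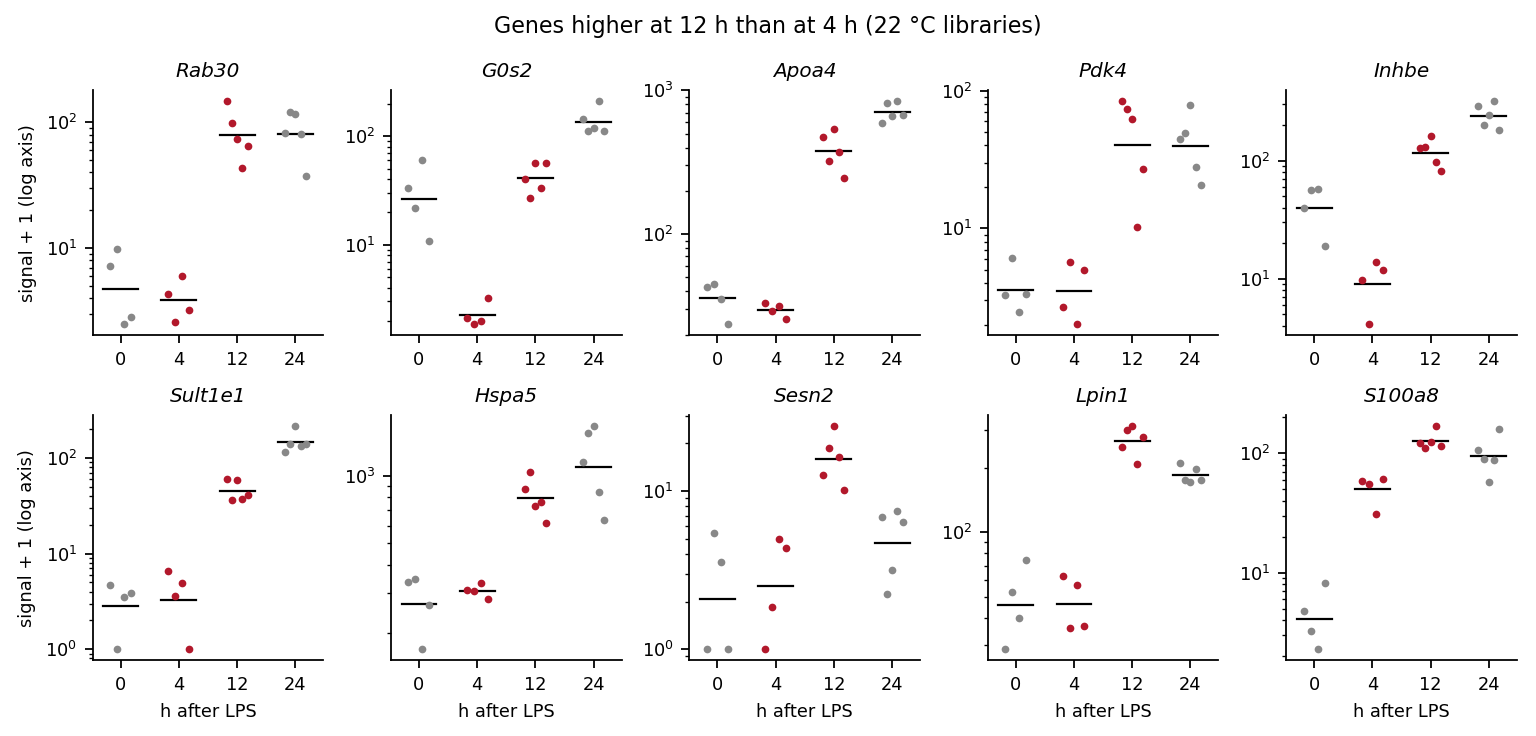
Points are single libraries at 22 °C, 0, 4, 12 and 24 h after LPS, on a log axis of deposited signal plus 1, with the 4 h and 12 h libraries in red and the mean of the logs as a bar. All 5 libraries at 12 h lie above all 4 libraries at 4 h in each gene, while G0s2 and Inhbe at 4 h also lie under their 0 h libraries.

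Fatty acid oxidation and PPAR alpha target genes did not move as a block: 8 of 34 tested rose, 8 fell and the median was -0.06. Plin2, the coat of hepatocyte lipid droplets, had 233, 216, 199.8 and 226 at 4 h and 730.0, 627, 579.6, 478 and 489.8 at 12 h, all late libraries higher, with a log2 difference of 1.39 (SE 0.22, limma adjusted p = 1.49e-05). Creb3l3, a membrane-bound fasting factor, had 35.4, 35.9, 48.4 and 53.3 at 4 h and 86.5, 111, 90.0, 85.6 and 91.9 at 12 h, with a log2 difference of 1.10 (SE 0.20, limma adjusted p = 0.000125). Hadh, a mitochondrial enzyme of beta-oxidation, fell from 679, 517, 533 and 819.8 to 359, 335, 260.0, 219 and 163, with a log2 difference of -1.28 (SE 0.21, limma adjusted p = 2.5e-05). Cpt1a, the entry step of beta-oxidation, had 186, 182, 237 and 150.4 at 4 h and 205, 271, 239.7, 135 and 212 at 12 h. Its groups overlapped and no difference was called, with a log2 difference of 0.15 (SE 0.26, limma adjusted p = 0.718). Ppara, the fasting-activated lipid receptor, had low signals of 4.83, 8.87, 8.48 and 2.59 at 4 h and 8.05, 17.3, 10.2, 4.33 and 7.66 at 12 h, which overlapped, with a log2 difference of 0.54 (SE 0.40, limma adjusted p = 0.345).

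In gluconeogenesis, glycogen and insulin signalling, 7 of 23 rose and 4 fell, against 11.9% and 14.4% of all tested genes. The median was -0.21. G6pc, the last step of glucose release, had 5.51, 1.72, 6.94 and 2.25 at 4 h and 50.5, 34.6, 33.2, 12.9 and 29.1 at 12 h. It rose, with a log2 difference of 2.72 (SE 0.40, limma adjusted p = 6.38e-06), without overlap, from 4 h values far under the 0 h mean of 84.5 ± 12.5 (SD, n = 4). Ppp1r3b, which directs a phosphatase to glycogen, had 6.72, 3.49, 4.03 and 3.42 at 4 h and 26.4, 17.1, 21.2, 49.5 and 14.8 at 12 h, with a log2 difference of 2.21 (SE 0.42, limma adjusted p = 0.000194). Irs1, the insulin receptor substrate, was listed at 0 in all 4 libraries at 4 h and had 12.7, 4.25, 27.1, 11 and 7.81 at 12 h, so no fold is given. Slc2a2, the glucose transporter GLUT2, fell from 90.4, 48.9, 91.2 and 47.2 to 17.8, 24.7, 8.53, 12.9 and 20.9, with a log2 difference of -1.99 (SE 0.30, limma adjusted p = 8.16e-06). Pck1, a rate-limiting gluconeogenic enzyme, had 1005, 1411, 1314 and 994 at 4 h and 799, 1237, 1217, 558 and 802 at 12 h, overlapping groups with a log2 difference of -0.40 (SE 0.28, limma adjusted p = 0.305). Igfbp1, a secreted binding protein of IGF1, had 1418, 1643, 1828 and 2158 at 4 h and 1375, 2169, 1854, 1077 and 1314 at 12 h, also overlapping, with a log2 difference of -0.21 (SE 0.41, limma adjusted p = 0.765), and both groups stood far above the 0 h mean of 71.1 ± 36.7 (SD, n = 4). The 4 falls of the list became 2 without replicate 5 of 12 h, with no filter and under upper-quartile rescaling.

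Of the unfolded protein and integrated stress response genes 11 of 28 rose and 1 fell, with a median of 0.55. Hspa5, the luminal chaperone BiP, had 309, 307, 333 and 282 at 4 h and 871, 1039, 728, 763 and 616 at 12 h. Its 4 h values were close together and near the 0 h mean of 279.5 ± 81.9 (SD, n = 4), all late values were higher, and the difference was 1.36 (SE 0.23, limma adjusted p = 3.59e-05). Hsp90b1, the chaperone GRP94, had 309.5, 224, 236 and 216 at 4 h and 398, 606, 383, 438 and 446 at 12 h, with a log2 difference of 0.88 (SE 0.21, limma adjusted p = 0.00211). Pdia6, a disulfide isomerase, had 202, 184, 189 and 172 at 4 h and 269.9, 243, 354, 335 and 392 at 12 h, with a log2 difference of 0.75 (SE 0.16, limma adjusted p = 0.000485). Sesn2, a target of the integrated stress response, had 0, 0.858, 3.96 and 3.37 at 4 h, near the detection limit, and 11.6, 17.8, 24.6, 15.4 and 9.1 at 12 h, with a log2 difference of 2.66 (SE 0.64, limma adjusted p = 0.0021). Edem1, which hands misfolded glycoproteins to degradation, fell a little, from 72.1, 68.6, 69.3 and 67.9 to 49.6, 53.5, 46.4, 50.1 and 36.8, with a log2 difference of -0.56 (SE 0.16, limma adjusted p = 0.0107). The 11 rises became 7 without replicate 2 of 4 h.

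The constitutive proteasome had 6 of 31 genes higher and 0 lower, against 11.9% and 14.4% of all tested genes, and a median of 0.29. Its 6 rises became 4 without replicate 1 of 4 h or in a fit on the 2 groups alone. Under upper-quartile rescaling 8 rose. Psmd8, a lid subunit, had 92.6, 66.9, 96.2 and 97.7 at 4 h and 266, 202, 179, 169.7 and 185 at 12 h, without overlap, with a log2 difference of 1.17 (SE 0.20, limma adjusted p = 5.65e-05). Of 31 ribosome assembly genes 7 were higher and 3 lower, against 11.9% and 14.4% of all tested genes, with a median of 0.37. Pno1, a factor of the small subunit, had 29.6, 29.6, 28.5 and 33 at 4 h and 59.4, 38, 48.5, 69.9 and 60.0 at 12 h, with a log2 difference of 0.82 (SE 0.22, limma adjusted p = 0.00563). Nop58, a core protein of snoRNPs, fell from 369, 605, 409.9 and 549.7 to 211, 251, 174, 151 and 152, with a log2 difference of -1.36 (SE 0.24, limma adjusted p = 7.25e-05). Those 7 became 4 without replicate 1 of 4 h or replicate 1 or 4 of 12 h and 3 without replicate 3 of 4 h.

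Of the acute phase genes 14 of 32 rose and 6 fell, with a median of 0.42. Saa1, serum amyloid A, had 9828, 12382, 10074 and 9424 at 4 h and 16125, 19206, 19108, 16869 and 23468 at 12 h. Every 12 h library was higher, with a log2 difference of 0.86 (SE 0.20, limma adjusted p = 0.0018), against a 0 h mean of 251 ± 39 (SD, n = 4); its close copy Saa2 can share reads. Lcn2, which binds bacterial siderophores, had 2216, 1939, 2229 and 2301 at 4 h and 4051, 3752, 3941, 4615 and 4761 at 12 h, without overlap, with a log2 difference of 0.96 (SE 0.22, limma adjusted p = 0.00124). Serpina3m, a protease inhibitor of a multigene family, had 208, 244, 264 and 337 at 4 h and 650.4, 506, 659, 648 and 658 at 12 h, with a log2 difference of 1.26 (SE 0.13, limma adjusted p = 2.4e-08). Fgb, the fibrinogen beta chain, had 23451, 33876, 27366 and 30320.5 at 4 h and 35929, 36628, 38699, 34986 and 40918 at 12 h. Its rise was small, 0.39 (SE 0.12, limma adjusted p = 0.012), and was lost without replicate 1 of 4 h, with no filter, and in a fit on the 2 groups alone.

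Crp, C-reactive protein, fell from 2606, 2102, 2342 and 2411 to 843, 1330.1, 1043, 809 and 977, clearly apart, with a log2 difference of -1.26 (SE 0.23, limma adjusted p = 0.000131). Serpina1b, an alpha-1 antitrypsin with near-identical copies, fell from 3536, 4022, 3970.2 and 3507 to 1722, 2469, 2105, 1636 and 1879, with a log2 difference of -0.95 (SE 0.13, limma adjusted p = 2.69e-06). Hamp, the iron hormone hepcidin, had 1018, 1209.6, 993 and 1267 at 4 h and 923, 1293, 1147, 758 and 385 at 12 h. Replicate 5 of 12 h was the lowest, the groups overlapped, and the difference of -0.42 (SE 0.31, limma adjusted p = 0.336) was not called. The 14 rises became 9 without replicate 1 of 4 h and 8 with no filter on low signal.

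In amino acid catabolism and the urea cycle 30 of 46 tested genes were lower and 2 higher, with a median of -1.09, and 4 were higher under upper-quartile rescaling or in a fit on the 2 groups alone. Cth, which makes cysteine from cystathionine, had 213, 175, 118 and 159.9 at 4 h and 35.7, 38.4, 18.5, 22.1 and 7.98 at 12 h. All late libraries were lower, with a log2 difference of -2.86 (SE 0.44, limma adjusted p = 1.06e-05), and the 24 h mean was 16.9 ± 11 (SD, n = 5). Amt, an enzyme of glycine cleavage, had 46.1, 38.2, 44 and 35.7 at 4 h and 11.8, 8.91, 12.5, 10.4 and 8.14 at 12 h, with a log2 difference of -1.90 (SE 0.29, limma adjusted p = 9.11e-06). Uroc1, urocanase of histidine breakdown, had 588, 560.4, 532 and 533 at 4 h and 180.0, 207, 125, 116 and 152 at 12 h, with a log2 difference of -1.85 (SE 0.25, limma adjusted p = 1.88e-06). Arg1, arginase, rose against its list, from 1268, 1354, 1089 and 1084 to 2399, 1655, 2109.5, 2459 and 2762 without overlap, with a log2 difference of 0.91 (SE 0.17, limma adjusted p = 0.000144).

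Cytochrome P450 genes of families 1 to 4 and their regulators had 23 of 42 lower and 3 higher, with a median of -0.88. Cyp3a25 had 208, 253, 228 and 227 at 4 h and 76.6, 105, 55, 61.6 and 35.6 at 12 h, with a log2 difference of -1.85 (SE 0.26, limma adjusted p = 3.82e-06), and near-identical Cyp3a genes can share its reads. Cyp2a5, a coumarin hydroxylase, had 669.6, 616, 756 and 464 at 4 h and 239, 320.3, 143, 238 and 83.9 at 12 h, again separate, with a log2 difference of -1.73 (SE 0.34, limma adjusted p = 0.000285). Nr1i2, the xenobiotic receptor PXR that drives Cyp3a genes, was among the 3 higher. It had 11, 15.4, 6.94 and 11.2 at 4 h and 31.4, 29.7, 47.4, 46.3 and 55.5 at 12 h, with a log2 difference of 1.83 (SE 0.27, limma adjusted p = 7.58e-06), which brought it back toward its 0 h mean of 65.2 ± 15.1 (SD, n = 4). The list of conjugating enzymes, carboxylesterases and flavin monooxygenases fell in 35 of 47 cases and rose in 1 (0 without any 1 of replicates 1, 3 and 4 of 4 h or 1, 3, 4 and 5 of 12 h), with a median of -1.07. Ces1c, the plasma carboxylesterase of mice, had 2896, 3088, 2642 and 2849.8 at 4 h and 1324, 1443, 1265, 1212 and 1154 at 12 h, with a log2 difference of -1.17 (SE 0.14, limma adjusted p = 1.24e-07). Ugt2b5, a glucuronosyltransferase, had 219, 215, 228 and 279.7 at 4 h and 76.4, 78.7, 76.6, 41.8 and 59.5 at 12 h, with a log2 difference of -1.84 (SE 0.26, limma adjusted p = 3.33e-06).

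Nnmt, nicotinamide methyltransferase, was the 1 member higher. It had 118, 264, 128 and 95.2 at 4 h and 277, 215, 253, 215 and 318 at 12 h, with replicate 2 of 4 h inside the 12 h range, and its call at 0.85 (SE 0.32, limma adjusted p = 0.0458) was lost under 10 settings, the replicate block and TMM rescaling included. Hsd3b3, a steroid dehydrogenase of the liver, was among the 10 largest falls, from 62.7, 45.8, 33.4 and 41.3 to 5.33, 15.4, 5.28, 1.43 and 0, with a log2 difference of -3.39 (SE 0.49, limma adjusted p = 4.47e-06). Keg1, a glycine acyltransferase-like gene, fell to the detection limit, from 17.8, 23.9, 22 and 33 to 1.27, 2.83, 1.22, 0.526 and 0.372, with a log2 difference of -3.55 (SE 0.38, limma adjusted p = 2.48e-08).

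Bile acid genes had 11 of 26 lower and 1 higher, with a median of -0.82. Without replicate 1 of 4 h or under upper-quartile rescaling 3 were higher, and without replicate 3 of 12 h 2. Abcb11, the bile salt export pump, had 1494, 1849, 1395 and 1599.8 at 4 h and 342, 426, 300.0, 204 and 216 at 12 h. The groups were far apart, with a log2 difference of -2.46 (SE 0.31, limma adjusted p = 4.19e-07), and the mean had been 2591 ± 188 (SD, n = 4) at 0 h. Slc10a1, the uptake transporter NTCP, had 706, 462, 708 and 525 at 4 h and 189.6, 274, 109.6, 129.6 and 107 at 12 h, with a log2 difference of -1.96 (SE 0.33, limma adjusted p = 4e-05). Akr1d1, a reductase of bile acid synthesis, had 55, 45.2, 45.6 and 46.6 at 4 h and 9.96, 16.1, 4.78, 5.77 and 1.53 at 12 h, with a log2 difference of -2.78 (SE 0.48, limma adjusted p = 5.78e-05). Amacr, a racemase of side-chain shortening, rose from 111, 129, 94.2 and 85.3 to 285, 246, 238, 247 and 238, with a log2 difference of 1.26 (SE 0.17, limma adjusted p = 1.28e-06), against a 0 h mean of 238 ± 26 (SD, n = 4). Cyp7a1, the first enzyme of the classic route to bile acids, was already at the detection limit at 4 h. Its signals were 1.71, 0, 2.56 and 2.32 at 4 h and 0.352, 0, 1.47, 0 and 0 at 12 h, against 39 ± 17.7 (SD, n = 4) at 0 h, the groups overlapped, and no change between 4 h and 12 h could be read at this depth.

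In fatty acid and triglyceride synthesis 9 of 21 fell and 1 rose, with a median of -0.68. The rises numbered 2 without replicate 1 or 2 of 4 h, 3 without replicate 5 of 12 h and 4 under upper-quartile rescaling or with array weights. Elovl6, an elongase, had 91.8, 55.5, 83.1 and 113 at 4 h and 14.6, 13.4, 12.1, 20.7 and 19.7 at 12 h, with a log2 difference of -2.33 (SE 0.30, limma adjusted p = 5.77e-07). Fads1, a desaturase, had 169.8, 125, 149.7 and 135 at 4 h and 75.8, 80.1, 58.7, 55.3 and 44.6 at 12 h, with a log2 difference of -1.21 (SE 0.20, limma adjusted p = 2.63e-05). Agpat2, an acyltransferase of triglyceride assembly, rose from 96.3, 52.8, 60.4 and 87 to 150.2, 203, 104, 155 and 128, without overlap, with a log2 difference of 1.00 (SE 0.21, limma adjusted p = 0.000561).

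Transcripts of the respiratory chain fell in both genomes. Of 77 nuclear genes 41 fell and 0 rose, with a median of -0.55, and under upper-quartile rescaling 26 fell and 1 rose. Without replicate 3 of 4 h, 1 rose as well. Ndufa6, a subunit of complex I, had 299.9, 264, 465 and 305 at 4 h and 116, 185, 185, 121 and 155 at 12 h, with a log2 difference of -1.12 (SE 0.20, limma adjusted p = 8.17e-05). Sdhb, the iron-sulfur subunit of complex II, had 112, 136, 162 and 99.9 at 4 h and 60.1, 73.2, 72, 75.9 and 61.9 at 12 h, with a log2 difference of -0.87 (SE 0.19, limma adjusted p = 0.000726). Among 13 mitochondrial genome-encoded transcripts 10 fell and 0 rose, with a median of -0.67. mt-Nd5 had 6317, 7294, 6776 and 7218 at 4 h and 3688, 3542, 3759.9, 2982 and 3548 at 12 h, with a log2 difference of -0.98 (SE 0.13, limma adjusted p = 1.86e-06), against a 0 h mean of 4588 ± 456 (SD, n = 4). All 4 h values of mt-Nd5 lay above that mean, while Ndufa6 had a 0 h mean of 402 ± 59.9 (SD, n = 4) within its 4 h range. The mitochondrial share of the signal fell with them, as given above, and its part in these values was not tested.

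Among other genes of secreted plasma proteins, 17 of 39 in complement and coagulation fell and 0 rose, and of 25 plasma carriers and apolipoproteins 13 fell and 3 rose. Klkb1, plasma kallikrein, had 168, 208, 177 and 202 at 4 h and 32.8, 39.3, 32.9, 18.5 and 12.9 at 12 h, with a log2 difference of -2.85 (SE 0.31, limma adjusted p = 3.72e-08). Serpind1, heparin cofactor II, had 266, 343, 233 and 312 at 4 h and 99, 88.1, 71.6, 108 and 41.5 at 12 h, with a log2 difference of -1.87 (SE 0.33, limma adjusted p = 6.71e-05). Alb, albumin, had 2064, 1913, 2233 and 2034 at 4 h and 1133, 1384, 1449, 945 and 1070.3 at 12 h. It was lower in all 5 late libraries, with a log2 difference of -0.80 (SE 0.15, limma adjusted p = 0.000126). Apoc1, an apolipoprotein, had 1529, 1603, 1434 and 1684 at 4 h and 796, 1072, 972, 848 and 751 at 12 h, with a log2 difference of -0.82 (SE 0.13, limma adjusted p = 2.08e-05).

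The growth hormone and IGF1 axis had 7 of 12 genes lower and 0 higher, with a median of -0.82, and the counts were 7 and 0 under every setting run. Ghr, the growth hormone receptor, had 137, 117, 136 and 99.2 at 4 h and 69.6, 51.8, 39.2, 35.4 and 35.2 at 12 h, with a log2 difference of -1.42 (SE 0.24, limma adjusted p = 3.58e-05). Igfals, which stabilises circulating IGF1, had 29.8, 30.9, 31.7 and 60.6 at 4 h and 9.56, 13.8, 2.84, 3.86 and 10.0 at 12 h, with replicate 4 of 4 h the highest, with a log2 difference of -2.23 (SE 0.38, limma adjusted p = 4.13e-05). Jak2, the kinase of the receptor, was high at 4 h and fell back, from 177, 143, 147 and 148 to 38.6, 59.9, 28.7, 28.5 and 26.6, with a log2 difference of -2.11 (SE 0.30, limma adjusted p = 3.33e-06), with a 0 h mean of 23.4 ± 11.3 (SD, n = 4).

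Clock genes had 5 of 14 higher and 1 lower, with a median of 0.44. Per1, a light- and glucocorticoid-inducible period gene, had 10.7, 9.86, 9.64 and 3.97 at 4 h and 28.5, 48.8, 39.7, 48.2 and 23.9 at 12 h, with a log2 difference of 2.05 (SE 0.48, limma adjusted p = 0.00151). Per2, its partner, had 2.26, 0, 0 and 0.574, at the detection limit, and 12.9, 10.6, 10.2, 11.8 and 8.84, with a log2 difference of 2.97 (SE 0.52, limma adjusted p = 6.29e-05). Nr1d1, the repressor REV-ERB alpha, fell from 6.25, 19.4, 13.9 and 9.2 to 2.5, 4.9, 1.11, 5.67 and 0.573, with a log2 difference of -1.85 (SE 0.49, limma adjusted p = 0.00467). Arntl, the activator BMAL1, had 1.97, 3.68, 3.86 and 10.8 at 4 h and 4.85, 10.6, 3.05, 11.7 and 6.72 at 12 h, overlapping groups with a log2 difference of 0.53 (SE 0.39, limma adjusted p = 0.341). Dbp was not tested, its mean signal being under 5. The labels give no clock time or feeding state, so time after LPS and time of day cannot be told apart here. Requiring a mean of at least 20 left 1 clock gene that rose.

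Among 16 glucocorticoid-responsive liver genes 5 rose and 2 fell, against 11.9% and 14.4% of all tested genes, with a median of 0.29. The rises included Per1, also counted among the clock genes, and Cdkn1a, also counted in the growth arrest list. Errfi1 and Hsd11b1 fell, with log2 differences of -0.77 and -0.57, and their overlap between groups was not read. Fkbp5, Klf9, Mt1, Mt2, Nr3c1, Tat, Dusp1, Sgk1 and Zbtb16 were not called. Lpin1, a phosphatidate phosphatase and fasting co-activator, had 61.8, 34.9, 55.7 and 35.8 at 4 h and 248, 299, 311, 208 and 278 at 12 h, far apart, with a log2 difference of 2.52 (SE 0.29, limma adjusted p = 9.33e-08). Cdkn1a, the cell cycle inhibitor p21, had 83.1, 95.9, 64.7 and 149 at 4 h and 459, 666, 466, 332 and 334 at 12 h, with a log2 difference of 2.21 (SE 0.32, limma adjusted p = 4.69e-06), above a 0 h mean of 12.2 ± 7.53 (SD, n = 4). The list of cold-inducible RNA-binding protein genes held Rbm3, Cirbp, Srsf5 and Rtn3, of which Rtn3 is a reticulon gene. Of these 4 tested genes 2 rose and 0 fell, with a median of 0.95. Rbm3 had 107, 85.8, 73.2 and 89.8 at 4 h and 290.0, 234, 279, 227 and 258 at 12 h, with a log2 difference of 1.53 (SE 0.19, limma adjusted p = 4.83e-07). Cirbp had 11.3, 3.1, 5.37 and 6.75 at 4 h and 56.3, 34.5, 44.4, 56.5 and 34.5 at 12 h, with a log2 difference of 2.68 (SE 0.38, limma adjusted p = 3.33e-06). Both also rose in the 30 °C step, with differences of 1.83 (SE 0.20) for Rbm3 and 2.11 (SE 0.40) for Cirbp.

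Markers of other cell types were read beside these results, and their part in them was not tested. Library totals were lower at 12 h than at 4 h, as given above, which bears on summed signals. The summed signal of the neutrophil and monocyte markers was 169 to 238 at 4 h and 314 to 420 at 12 h, with 4 of 7 tested markers higher and 0 lower and a median of 1.24. Of the 19 markers listed, 2 were at 0 in all 9 libraries. Among those tested, Lyz2, Plac8 and Cxcr2 were not called. Their log2 differences were -0.93 (SE 0.43, limma adjusted p = 0.117), 0.27 and -0.18. S100a8, a calcium-binding protein abundant in neutrophils, had 58.2, 54, 30.2 and 60.4 at 4 h and 121, 110.5, 123, 167 and 115 at 12 h, without overlap, with a log2 difference of 1.34 (SE 0.33, limma adjusted p = 0.00252). Ngp, a neutrophil granule protein, had 7.72, 1.72, 0 and 0 at 4 h and 10.9, 9.89, 4.74, 32.1 and 12.7 at 12 h, with replicate 1 of 4 h inside the 12 h range, with a log2 difference of 2.53 (SE 0.55, limma adjusted p = 0.000776). Itgam, the integrin CD11b, had 2.5, 5.64, 1.5 and 0 at 4 h and 8.58, 2.99, 9.28, 5.81 and 8.78 at 12 h, which overlapped, and its call at 1.47 (SE 0.55, limma adjusted p = 0.0454) was lost under 12 settings.

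The Kupffer cell and macrophage markers summed to 175 to 273 at 4 h and 107 to 168 at 12 h, with 4 of 14 lower, 0 higher and a median of -0.73. Clec4f, a lectin of resident Kupffer cells, had 40.2, 17.7, 19.3 and 39.5 at 4 h and 11.6, 22.2, 9.21, 6.25 and 4.97 at 12 h. Its groups overlapped, with a log2 difference of -1.42 (SE 0.35, limma adjusted p = 0.00245). Mrc1, the mannose receptor, had 26.4, 30.0, 10.9 and 37.2 at 4 h and 11.3, 14.5, 5.23, 7.09 and 1.67 at 12 h, also overlapping, with a log2 difference of -1.71 (SE 0.49, limma adjusted p = 0.00854). Without replicate 4 of 4 h, 2 of the list were called lower. Endothelial markers had 2 of 17 lower and 2 higher (11.8% each way, against 14.4% and 11.9% of all tested genes), with a median of 0.31, and their summed signal overlapped between 4 h (285 to 342) and 12 h (253 to 386). Without replicate 1 or 4 of 4 h or replicate 4 or 5 of 12 h, and with no filter, 1 was lower. Clec4g, a lectin of sinusoidal cells, fell from 15.6, 14.9, 12.9 and 14.6 to 2.23, 7.53, 0, 0 and 0 (limma adjusted p = 3.19e-05), where 3 late libraries were listed at 0. Egfl7, an endothelial secreted factor, rose from 1.46, 1.7, 0.983 and 2.6, under the detection limit, to 7.36, 10.7, 7.01, 14.5 and 5.12, with a log2 difference of 1.84 (SE 0.29, limma adjusted p = 1.47e-05). The other endothelial marker that rose was Oit3, whose values are given below. Within the lobule, periportal hepatocyte markers had 8 of 11 lower and pericentral ones 7 of 9, against 14.4% of all tested genes. The summed signal fell from 2903 to 3367 down to 1466 to 2446 for the first. For the second it fell from 3276 to 6162 down to 1903 to 2854, and Cyp2e1 was its largest part, with means of 3154 at 4 h and 1351 at 12 h. The pericentral markers Glul and Rhbg were not called, with means of 154 and 6.66 at 4 h and 165 and 11.7 at 12 h. Pck1, Sds and Ctsc were the periportal markers not called. The marker lists share genes with lists given above, so these falls are not separate results. Hal, Gls2, Ass1 and Oat are also counted in amino acid catabolism, and Cyp2f2, Cyp2e1 and Cyp1a2 among the cytochrome P450 genes. The 7 pericentral falls became 3 without replicate 3 of 4 h, and 4 without replicate 5 of 12 h or under upper-quartile rescaling.

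The same step at 30 °C called 2630 genes (30.2%). Of the 1032 genes higher at 22 °C, 554 (53.7%) were higher at 30 °C, which was 51.6% of the genes higher there. Of the 1252 lower at 22 °C, 966 (77.2%) were lower at 30 °C, or 62.0% of those lower there. A single gene, Sfxn1, named after its values were seen, was lower at 22 °C and higher at 30 °C, and 0 went the other way. Without replicate 4 of 4 h at 30 °C, which also moves the shared spread, 1066 genes were higher and 1284 lower at 22 °C, 539 were higher and 945 lower at both temperatures, Ddc joined Sfxn1, and Rpl18 was higher at 22 °C and lower at 30 °C. Differences over 2 on the log2 scale were called in 287 genes at 22 °C and 587 at 30 °C (596 without replicate 4 of 4 h at 30 °C).

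The difference between the 2 steps, tested gene by gene, was called in 13 genes (0.149%), and 901 had an unadjusted p under 0.05. In 8 of the 13 (0.0919% of tested genes) the step at 22 °C was the higher one and in 5 (0.0575%) the lower. Rnd1, a small GTPase that alters the cytoskeleton, had 121, 93.8, 97.8 and 152 at 4 h and 25.3, 78.7, 29.6, 50.2 and 9.54 at 12 h at 22 °C, a step of -1.84 (SE 0.34, limma adjusted p = 0.000136). Its step at 30 °C was -4.37 (SE 0.36), and the steps differed by 2.54 (SE 0.50, limma adjusted p = 0.0187). Pnrc1, a nuclear receptor co-activator, had 261, 241, 266 and 394 at 4 h and 187, 200.2, 143, 186 and 93.7 at 12 h at 22 °C, a step of -0.86 (SE 0.23, limma adjusted p = 0.00496) against -2.58 (SE 0.24) at 30 °C, a difference of 1.72 (SE 0.33, limma adjusted p = 0.0187). Cyp2c37, a P450 of a near-identical family, had 731, 485, 799 and 889.9 at 4 h and 425, 484, 369, 354 and 324 at 12 h, groups that all but touched. Its step was -0.87 (SE 0.27, limma adjusted p = 0.0173) against -2.91 (SE 0.29) at 30 °C, a difference of 2.04 (SE 0.40, limma adjusted p = 0.0187), and the 22 °C call was lost without replicate 3 or 4 of 4 h.

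Pcyox1, a lysosomal prenylcysteine oxidase, overlapped between 4 h and 12 h at 22 °C, with 47.2, 43.8, 39.2 and 72.4 at 4 h and 43.9, 42.2, 38, 31.4 and 26.7 at 12 h. Its step was -0.45 (SE 0.20, limma adjusted p = 0.107) at 22 °C and -2.07 (SE 0.22) at 30 °C, and the difference was 1.62 (SE 0.30, limma adjusted p = 0.0187). Cpq, a carboxypeptidase, had 260.2, 198, 181 and 202 at 4 h and 226, 192, 154, 172 and 115 at 12 h, overlapping, with a log2 difference of -0.31 (SE 0.17, limma adjusted p = 0.185). Its step at 30 °C was -1.61 (SE 0.18), and the difference was 1.29 (SE 0.25, limma adjusted p = 0.0187). Slc25a15, the ornithine carrier of the urea cycle, had 257, 338, 234 and 187 at 4 h and 178, 195, 219, 282 and 318 at 12 h, which overlapped, with a log2 difference of -0.09 (SE 0.22, limma adjusted p = 0.806). At 30 °C it rose, with 1.54 (SE 0.23), and the steps differed by -1.63 (SE 0.32, limma adjusted p = 0.0187).

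Oit3, a secreted protein of the liver listed above among the endothelial markers, had 11.1, 18.8, 7.79 and 23.3 at 4 h and 74, 43.3, 43.1, 35.4 and 38.3 at 12 h at 22 °C, without overlap. It rose at 22 °C, with a log2 difference of 1.62 (SE 0.34, limma adjusted p = 0.000493), and had -0.67 (SE 0.35) at 30 °C, a difference of 2.28 (SE 0.49, limma adjusted p = 0.039). Slc30a1, the zinc exporter, had 6.75, 7.88, 6.34 and 4.68 at 4 h and 23.4, 16.2, 21.1, 22.2 and 21 at 12 h and rose at both temperatures, with a log2 difference of 1.56 (SE 0.21, limma adjusted p = 1.4e-06) at 22 °C and 2.99 (SE 0.22) at 30 °C, and the steps differed by -1.42 (SE 0.30, limma adjusted p = 0.039). It shares all its values with a second gene entry, so that the 13 hold 12 distinct sets of values. These calls are fragile: without 1 library the count ranged from 0 (without replicate 2 of 4 h or replicate 2 of 12 h at 22 °C, or replicate 1 of 12 h at 30 °C) to 81 (without replicate 5 of 12 h at 22 °C). It was 1 without replicate 1 of 4 h and 8 without replicate 3 of 12 h at 22 °C. Without replicate 4 of 4 h at 30 °C, the library that stands apart, the difference was no longer called for Cpq, Cyp2c37, Oit3, Slc25a15 and Slc30a1. At 30 °C the count was 8, 8, 5 and 3 without each 4 h replicate in turn and 6, 23 and 8 without replicates 2, 3 and 4 of 12 h.

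**Figure D5:**
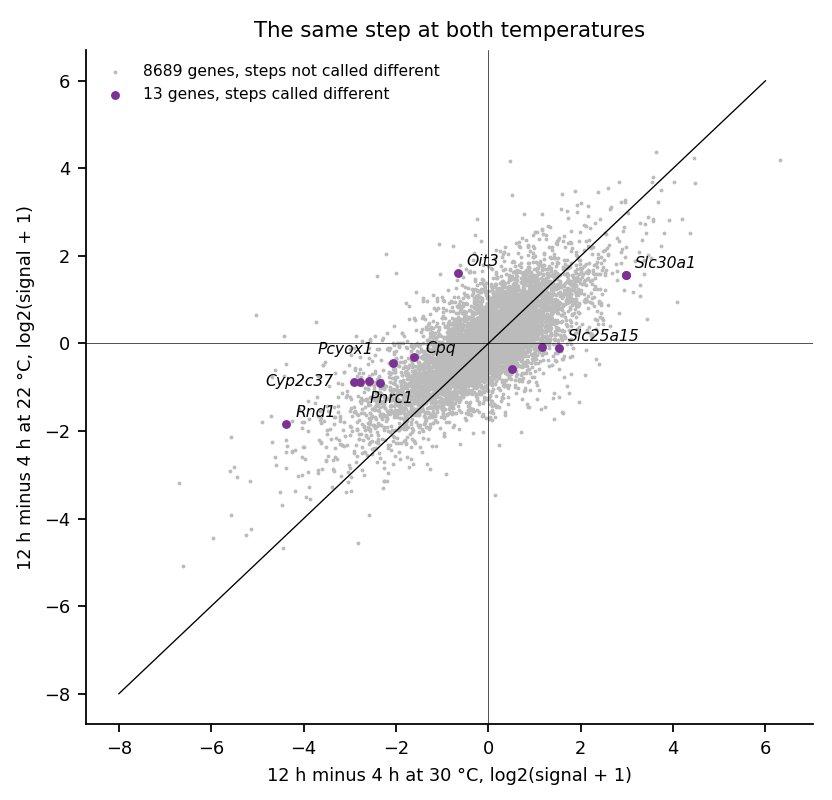
Each point is 1 tested gene, with its 12 h minus 4 h difference in log2(signal + 1) at 30 °C on the horizontal axis and at 22 °C on the vertical axis, and the diagonal marks equal steps. The 13 genes whose steps were called different are in purple, with 8 above the diagonal and 5 below it, and Oit3 lies at 1.62 at 22 °C and -0.67 at 30 °C.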

How the data were processed

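CEL-Seq2 libraries of total liver RNA were quantified by the authors with kallisto and sleuth after Trimmomatic, per the submitters' processing notes; the sources used here give no versions, build or index, and do not say whether molecular identifiers were collapsed. The values used are the deposited signal column, named scaled reads per base in the file header and given per gene. It is not defined in the sources used here, its scaling by gene length is not stated, and its values are not whole reads, so no count test was run. Depth is unknown except as estimated from the steps of low values. The deposited column labelled tpm sums to between 757040 and 1746038 per library, so it is not plain TPM, and served as an alternative.

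Of 34829 genes, 8702 with a mean of at least 5 over the 36 libraries were tested on log2(signal + 1) with limma 3.58.1 in R 4.3.3: 1 mean per group over all 36 libraries, a trended prior, and Benjamini-Hochberg adjustment over all tested genes at 0.05. The procedure was tested on simulated data. The members and gene lists were chosen with earlier results of these data known. Named genes were the 10 largest rises and falls with a group mean of at least 20, up to 4 called members of smallest p per list with 1 of the other direction, the 6 of smallest p in the difference between temperatures, and a list of genes followed whatever their test; those of the lists that are printed were picked after their values were seen. Alternatives changed the pseudocount, filter, column, scaling, model, weights and replicate block, and left out each library in turn. Promoters came from RefSeq (GRCm38.p6).

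Of the tested genes, 102 shared all their values with another entry. The sources used here do not give the use of strand in counting, so overlapping and near-identical genes are uncertain.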

Additional observations from a re-analysis of the deposited data

Results flagged for a closer look

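In each gene printed, the 4 h and the 12 h groups were searched for a library far from the others (Dixon's test on log2(signal + 1)). Of 268 gene and group pairs, 14 held such a library, and chance gives about 1 in 20. At 4 h these were Ccl2 in replicate 3 (signal 114, the lowest), Btg3 in replicate 4 (0, the lowest), Psmd8 in replicate 2 (66.9, the lowest), Akr1d1 in replicate 1 (55.0, the highest), Igfals in replicate 4 (60.6, the highest), Per1 in replicate 4 (3.97, the lowest) and S100a8 in replicate 3 (30.2, the lowest). At 12 h they were Creb3l3 in replicate 2 (111, the highest), Serpina3m in replicate 2 (506, the lowest), Amacr in replicate 1 (285, the highest), mt-Nd5 in replicate 4 (2982, the lowest), Nr2f2 in replicate 4 (22.6, the lowest), S100a8 in replicate 4 (167, the highest) and Oit3 in replicate 1 (74.0, the highest).

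In the main fit, the step from 4 h to 12 h was called different between 22 °C and 30 °C for the genes below. The difference itself was tested (limma, adjusted over all tested genes). The 22 °C step was above the 30 °C step by 2.54 for Rnd1, 2.28 for Oit3, 2.04 for Cyp2c37, 1.72 for Pnrc1, 1.62 for Pcyox1 and 1.29 for Cpq on the log2 scale. The difference was -1.63 for Slc25a15 and -1.42 for Slc30a1. These calls are fragile, since without 1 library the count of such genes ranged from 0 to 81. Without replicate 4 of 4 h at 30 °C, the calls for Cpq, Cyp2c37, Oit3, Slc25a15 and Slc30a1 were lost.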

How the results depend on the processing

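Of 134 genes printed, 124 were called, and 116 of these kept call and direction under every setting run. The call was lost in 7 under at least 1 change of pseudocount, filter, column, scaling or model and in 8 without at least 1 replicate, and 0 reversed. Slc25a15, which was not called, reversed from -0.09 to 0.0191 under upper-quartile rescaling and ranged from -0.228 to 0.0539 without 1 replicate (the lowest without replicate 4 and the highest without replicate 2 of 4 h). Without 1 library, the 22 °C step gave 1814 to 2217 genes (809 to 974 higher, 1005 to 1243 lower), the 30 °C step 2250 to 2453 (867 to 1052 higher, 1383 to 1481 lower) and the 30 °C step from 0 h to 4 h 2519 to 2725 (1415 to 1556 higher, 1055 to 1303 lower). The difference between temperatures gave 0 to 81 (0 to 60 higher, 0 to 21 lower).

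With a mean signal of at least 20, fewer genes were tested: 620 were higher in the 22 °C step and 643 in the 30 °C step, 1772 changed from 0 h to 4 h at 30 °C with 714 lower, and 3 had a lower step at 22 °C. Rises then numbered 2 of the receptors, 3 of the gluconeogenesis list, 3 of glycolysis and hypoxia, 3 of ribosome assembly, 2 of the hepatocyte transcription factors and 2 of the neutrophil and monocyte markers, and falls 8 of the cytokines and chemokines and 2 of the Kupffer cell markers. Under upper-quartile rescaling 1723 were higher in the 30 °C step and 5 had a higher step at 22 °C. Genes with a lower step at 22 °C numbered 3 with a pseudocount of 5, 3 with no filter, 1 with the tpm column and 2 in a fit on the groups of the contrast alone. Array weights gave 138 genes whose steps differed (93 higher, 45 lower). The cause of these moves was not tested.

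The replicate numbers share only a number: deviations of same-numbered libraries correlated at 0.0074, -0.014, 0.014 and -0.0086. With a replicate block, 2269 genes changed in the 22 °C step (1026 higher, 1243 lower), and 21 differed between temperatures (13 higher, 8 lower). Signals of about 3 reads or fewer limit Tnf, Cyp7a1, Hspa1b at 12 h and the genes that start from near 0 at 4 h.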

Other observations

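In 5 further lists genes were called in both directions. The called shares were 44.4% for glycolysis and hypoxia, 23.5% for metallothionein, zinc and iron, 38.1% for hepatocyte transcription factors, 33.3% for NRF2 and 23.5% for growth arrest and apoptosis, against 26.2% of all tested genes, and nothing is read from them about the lists as groups. Of 18 tested glycolysis and hypoxia-responsive genes 6 rose and 2 fell, with a median of 0.26 on the log2 scale. The falls became 0 without replicate 1 of 4 h or replicate 5 of 12 h and with no filter, and 1 without replicate 3 or 4 of 4 h or replicate 1 of 12 h. Bnip3, a mitophagy receptor induced in hypoxia, had 79.9, 69.9, 74.5 and 92.4 at 4 h and 163, 146, 147, 199 and 124 at 12 h, all late libraries higher, with a log2 difference of 0.96 (SE 0.17, limma adjusted p = 0.000103). Pfkfb3, an activator of glycolysis, fell from 213, 133, 144 and 168 to 107, 92, 82.2, 88.8 and 63.2, with a log2 difference of -0.91 (SE 0.31, limma adjusted p = 0.0265), and had a 0 h mean of 5.26 ± 3.05 (SD, n = 4). Its call was lost without replicate 1 or 4 of 4 h or replicate 5 of 12 h, with no filter and under upper-quartile rescaling. Of 17 metallothionein, zinc and iron genes 3 rose and 1 fell, and 2 fell without replicate 2 of 4 h or replicate 2 of 12 h. Alas1, the first enzyme of heme synthesis, rose from 207, 199, 180.4 and 137 to 729, 571, 568, 456 and 549, with a log2 difference of 1.66 (SE 0.20, limma adjusted p = 1.57e-07), while Fech, the last, fell from 288, 232, 249 and 237 to 164, 143, 156, 159 and 122, with a log2 difference of -0.75 (SE 0.17, limma adjusted p = 0.00129). Both pairs of groups were separate.

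Of 21 hepatocyte transcription factors 4 rose and 4 fell. Nr2f2, an orphan nuclear receptor, rose from 13.6, 13.6, 10.5 and 8.02 to 39.5, 40.0, 39.1, 22.6 and 39.8, with a log2 difference of 1.58 (SE 0.28, limma adjusted p = 7.36e-05), and Nr5a2, the receptor LRH-1, fell from 32.9, 24.7, 37.6 and 41 to 13.3, 12, 13.6, 16.6 and 16.4, with a log2 difference of -1.17 (SE 0.23, limma adjusted p = 0.000325). The 4 falls became 2 without replicate 1, 2 or 3 of 4 h or replicate 1 of 12 h, with no filter and under upper-quartile rescaling. Of 15 NRF2 antioxidant genes 4 fell and 1 rose, and 0 rose without replicate 2, 3 or 4 of 4 h or replicate 4 of 12 h. Gclc, a subunit of the rate-setting enzyme of glutathione synthesis, fell from 42.9, 41.7, 47.1 and 32.9 to 20.3, 16.3, 21.5, 16 and 21.8, with a log2 difference of -1.06 (SE 0.22, limma adjusted p = 0.0005). Of 17 growth arrest and apoptosis genes 3 rose and 1 fell. Ccng1, a target of p53, rose from 38.6, 67.7, 57.9 and 78.7 to 237, 318, 227, 143 and 186, with a log2 difference of 1.85 (SE 0.34, limma adjusted p = 0.000103), and Plk3, a stress-induced kinase, fell from 51.2, 57.9, 44.6 and 23.8 to 5.28, 5.93, 20.9, 9.95 and 11.1, with a log2 difference of -2.04 (SE 0.42, limma adjusted p = 0.000412).

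For the other lists the counts follow, against 11.9% higher and 14.4% lower of all tested genes. Lists with few tested members allow no reading as groups. Cytosolic ribosomal protein genes had 2 of 79 higher and 3 lower, with a median of -0.06. Without replicate 3 of 4 h, 0 were lower, and without replicate 1 or 5 of 12 h, 1. Without replicate 1 or 4 of 4 h or replicate 4 or 5 of 12 h, 1 was higher. Cholesterol synthesis and uptake genes had 1 of 24 higher and 3 lower, and 1 lower without replicate 1, 3 or 4 of 4 h or replicate 1, 3 or 5 of 12 h. Major urinary protein genes, which are near-identical, had 0 of 18 higher and 2 lower. Cell cycle genes had 1 of 7 higher and 1 lower, and MHC class II genes 0 of 4 in either direction. Stellate cell and matrix markers had 1 of 13 higher and 2 lower, with 0 lower without replicate 4 of 4 h and 1 without replicate 2 of 4 h or replicate 1, 4 or 5 of 12 h. Cholangiocyte markers had 0 of 2 higher and 1 lower, with a summed signal of 190 to 360 at 4 h and 46.3 to 228 at 12 h. The largest part of the sum was Sox9, with means of 37.2 at 0 h, 248 at 4 h, 108 at 12 h and 36.1 at 24 h. Only group means are given for Sox9, and overlap was not read. Spp1 was not called, with means of 19.0 at 4 h and 21.7 at 12 h. Of the T and NK cell, B cell, erythroid and platelet markers 1, 1, 4 and 2 were tested, and 0 were called.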
